A study of Homo sapiens with 6 samples.

Results

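Of 10 genes that make, sense or undo nitric oxide signals, 8 were tested in the human cell line MDA-MB-468. After 10 days with a nitric oxide donor, 4 of the 8 (50%) differed from untreated cells, against 43.4% of all genes tested. Of these 4, NOS3 had enough reads to be tested only through its treated libraries. The share therefore describes the genes and supports nothing about the group. The 10 genes, chosen by name, were the nitric oxide synthases NOS1, NOS2 and NOS3; DDAH1, DDAH2 and ARG2, which act on the synthases' inhibitor and substrate; the denitrosating reductases ADH5 and AKR1A1; and PDE5A and PRKG1, which act on the second messenger cGMP. All 10 were chosen with earlier results of these data known, and all were found among the 45019 rows of the deposited data. Cells of the DETA/NO group were given DETA/NO, a slow-releasing nitric oxide donor, at 100 µM for 10 days, with repeated replating and renewal of the donor. Cells of the other group were untreated (the labels give day 10 for them too). MDA-MB-468, a long-established line from a human breast carcinoma, lacks hormone receptors and HER2 amplification and carries extra copies of EGFR. The labels name no genetic change made to it. The study asked whether nitric oxide, described by the submitters as an inhibitor of the RNA demethylase FTO, acts on transcription. Total RNA was sequenced from 3 labelled samples per group. DETA/NO replicates 1 and 2 had the same value in every row, so both were counted as 1 library, which leaves n = 2 DETA/NO and n = 3 untreated libraries. The labels say that dishes were pooled within each replicate. Whether the replicates were separate cultures is not stated, so a p-value here covers the spread among these libraries, which may be technical.

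Nitric oxide is made from arginine by the 3 synthases, with tetrahydrobiopterin as a cofactor. Asymmetric dimethylarginine, released when methylated proteins are broken down, inhibits the synthases. The gas binds soluble guanylate cyclase, which makes cGMP, and cGMP activates protein kinase G until phosphodiesterases remove it. Nitric oxide also adds to cysteine thiols, directly or through S-nitrosoglutathione and S-nitroso-coenzyme A, and reductases reverse this. NOS3 is best known from the endothelium, NOS1 from neurons and muscle, and NOS2 from activated macrophages.

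The promoter windows of the 4 genes that passed the test are shown because these genes moved with the treatment. Each runs from 250 bases before to 50 bases after a RefSeq gene start (GRCh38.p14), 5′ to 3′ on the gene's strand, and is the first window that RefSeq gives for that gene (NOS3 has 2 windows, DDAH1 and PDE5A 3 each). Capitals mark matches on either strand to any of 6 short motifs.
NOS3, chr7:150993532-150993831, plus strand: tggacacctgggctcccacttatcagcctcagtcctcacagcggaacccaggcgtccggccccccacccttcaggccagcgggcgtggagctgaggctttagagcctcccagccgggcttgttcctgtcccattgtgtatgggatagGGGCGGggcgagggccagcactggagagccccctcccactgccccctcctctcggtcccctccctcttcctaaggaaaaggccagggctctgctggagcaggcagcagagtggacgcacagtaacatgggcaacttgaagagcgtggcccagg
DDAH1, chr1:85578151-85578450, minus strand: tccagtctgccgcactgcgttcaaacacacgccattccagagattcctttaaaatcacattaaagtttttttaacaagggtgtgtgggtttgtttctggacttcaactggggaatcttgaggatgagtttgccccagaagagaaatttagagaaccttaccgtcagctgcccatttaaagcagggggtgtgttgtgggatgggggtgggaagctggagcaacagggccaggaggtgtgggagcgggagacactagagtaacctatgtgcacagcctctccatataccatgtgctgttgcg
PDE5A, chr4:119628755-119629054, minus strand: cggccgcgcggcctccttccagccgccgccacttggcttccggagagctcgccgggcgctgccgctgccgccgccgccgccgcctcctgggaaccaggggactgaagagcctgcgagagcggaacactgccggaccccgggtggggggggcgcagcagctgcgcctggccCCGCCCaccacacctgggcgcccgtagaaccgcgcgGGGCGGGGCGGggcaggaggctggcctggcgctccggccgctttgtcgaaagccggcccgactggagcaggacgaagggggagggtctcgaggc
AKR1A1, chr1:45550576-45550875, plus strand: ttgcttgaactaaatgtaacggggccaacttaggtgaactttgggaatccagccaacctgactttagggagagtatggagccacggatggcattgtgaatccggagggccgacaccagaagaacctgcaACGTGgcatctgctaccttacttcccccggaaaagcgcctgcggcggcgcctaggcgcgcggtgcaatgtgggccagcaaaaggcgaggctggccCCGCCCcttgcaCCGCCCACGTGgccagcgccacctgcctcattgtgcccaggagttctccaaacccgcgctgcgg
The motifs searched were AP-1 (TGANTCA), the core of the antioxidant response element (TGACNNNGC), the core of the hypoxia response element (ACGTG), the ATF4 composite element (TGATGNAA), the GC box (GGGCGG) and a STAT element (TTCNNNGAA). In all 35116 RefSeq windows of this length, 45.0% held a GC box, 21.4% the hypoxia core, 13.3% the antioxidant core, 7.71% AP-1, 7.66% the STAT element and 3.62% the ATF4 element. The NOS3 window held 1 GC box. The PDE5A window held 3 GC boxes, a pair of them overlapping, and 77.3% of its bases were G or C, against a median of 58.7% over all windows. The AKR1A1 window held 2 GC boxes and 3 matches to the hypoxia core, of which 2 overlap each other on opposite strands, directly at the end of a GC box. The DDAH1 window shown held no match, while window 3 of DDAH1 held 1 AP-1 match and 1 hypoxia core match. These matches describe letters, not binding sites.

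Each value is a normalized read count, that is, the reads of a gene times 1 scaling value for the library. The libraries held 28897422 to 34637343 recovered reads, and 22374 to 22614 genes had a value above 0. EGFR, the check of the cell line, had 247990 and 245827 normalized reads in the DETA/NO libraries, against 226490, 222549 and 217563 in the untreated libraries, and KRT8, an epithelial keratin, averaged 41281 ± 2141 and 38211 ± 2122 (SD). Of the 8 epithelial markers read, 2 were higher and 1 lower, against 21.7% of all genes tested in each direction. The count was 5 higher without untreated replicate 3, 4 without DETA/NO replicate 1 and 1 without DETA/NO replicate 3. Ribosomal precursor RNA (RNA45S) averaged 127160 ± 1898 in DETA/NO and 90829 ± 9135 in untreated libraries (log2 fold change 0.49, adjusted p = 0.0396, limma). It did not pass without untreated replicate 2 or 3 or without either DETA/NO library (adjusted p = 0.0668 to 0.174). Whether it reflects ribosomal RNA left in the libraries or a change in the cells was not tested. Its part in the results below was not tested either.

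Of the 10 genes, 8 had a mean of at least 10 normalized reads and were tested with limma on log2(value + 1). At a Benjamini-Hochberg adjusted p under 0.05, adjusted over 16409 genes, NOS3, DDAH1 and PDE5A were higher and AKR1A1 was lower in DETA/NO cells. DDAH2, ARG2, ADH5 and PRKG1 did not pass, and NOS1 and NOS2 lay under the filter. The 4 of 8 called (50%) stand against 43.4% of all genes tested, with 37.5% against 21.7% higher and 12.5% against 21.7% lower. Both DETA/NO values were above, or both below, every untreated value in 5 of 8 genes (62.5%, against 61.2% of all genes tested). They were above in 4 (50%, against 30.4%) and below in 1 (12.5%, against 30.8%). NOS3 reached the filter only through its DETA/NO libraries, so these shares describe the genes and support nothing about the group. In a bulk library, a change in the number of expressing cells and a change in RNA per cell cannot be told apart.

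**Figure D1:**
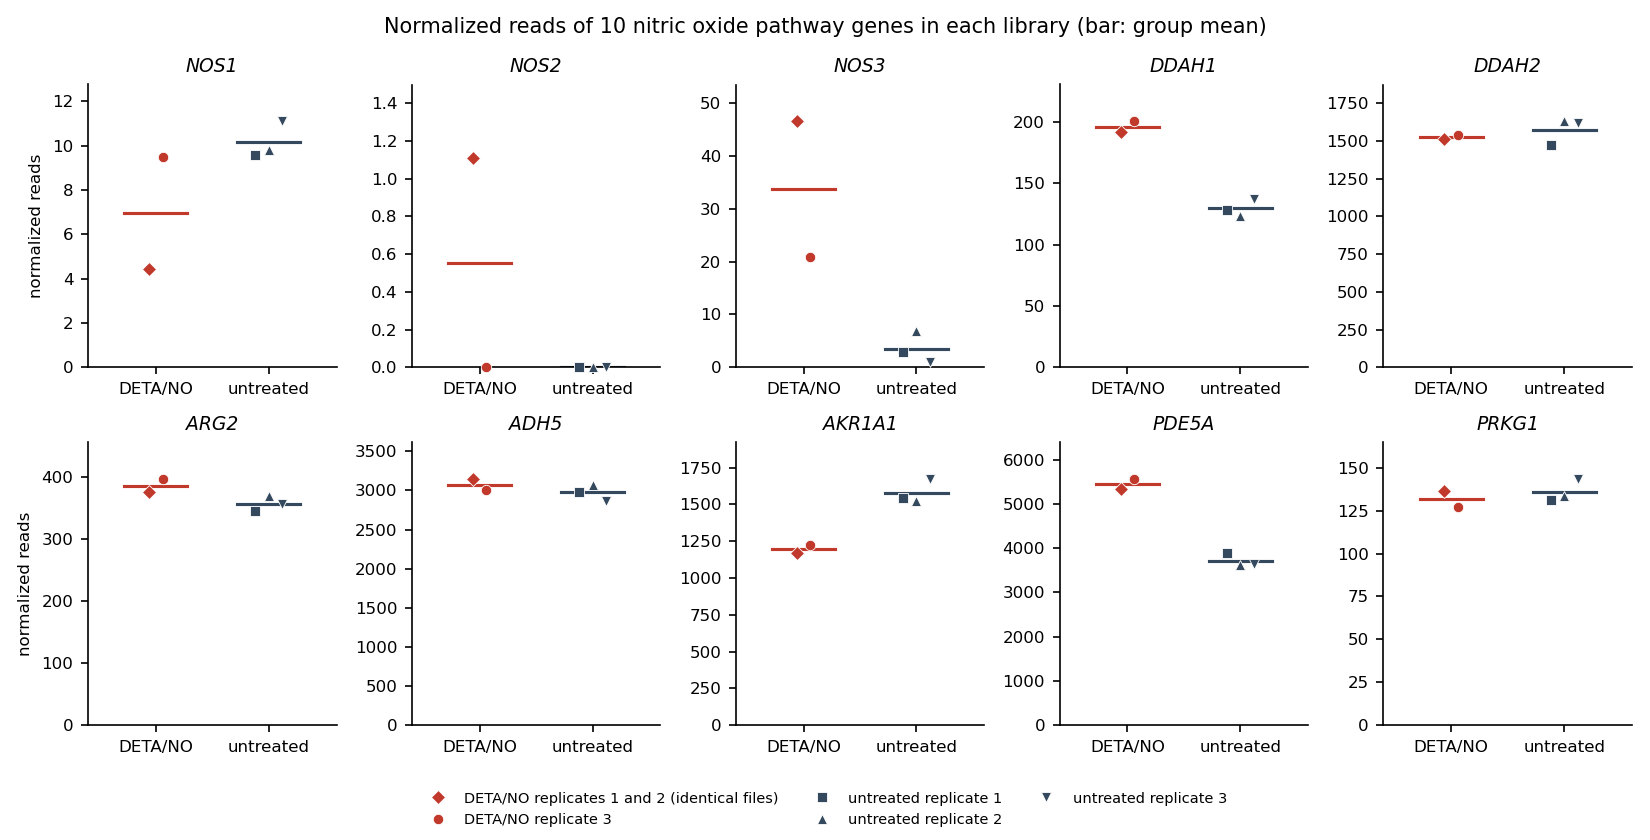
Normalized reads of the 10 genes (vertical axes from 0) in the 2 DETA/NO libraries (red) and the 3 untreated libraries (dark blue), with bars at the group means. Both DETA/NO points lie above all untreated points for NOS3, DDAH1, ARG2 and PDE5A, and below them for AKR1A1 and NOS1. For NOS1, DETA/NO replicate 3 had 10 reads, as did untreated replicates 1 and 2, so these points differ only through library scaling.

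Of the synthases, NOS3 moved most. NOS3, the endothelial synthase, lies on the plus strand of chromosome 7 at 150990995 to 151014588 (GRCh38, as are all positions). It had 46.5 and 20.9 normalized reads in the DETA/NO libraries, against 2.87, 6.87 and 0.924 in the untreated libraries. The lower DETA/NO library was still above every untreated library. In normalized reads the DETA/NO libraries differed from each other by more than all untreated libraries did. On the log2 scale of the test, the untreated libraries differed by more. The means were 33.7 ± 18.1 (SD, n = 2) and 3.55 ± 3.03 (SD, n = 3), a log2 fold change of 3.05 ± 0.526 (SE; 95% interval 1.97 to 4.14; adjusted p = 3.11e-05, limma). By size this was rank 5 of 16409 genes from the highest log2 fold change. NOS3 reached the filter only through its DETA/NO libraries, so the adjusted p and the rank describe the gene and support nothing.

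The reads behind NOS3 were few. There were 42 and 22 reads in the DETA/NO libraries, against 3, 7 and 1 in the untreated libraries. Pooled over libraries, 64 and 11 reads gave a depth-corrected ratio of 9.37 (95% exact interval 4.90 to 19.7, counting error only). Without DETA/NO replicate 1, which stands for the library shared with replicate 2, the mean fell under the filter and NOS3 was not tested. A fit without that library and without the filter, chosen after seeing the data, put the log2 fold change at 2.5 (adjusted p = 0.0279). A pseudocount of 10 in place of 1 put it at 1.65 (adjusted p = 3.52e-06).

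ATG9B, which runs on the opposite strand, shares 786 bases, or 13.2%, of the exons of NOS3. ATG9B had 5.54 and 9.50 normalized reads in DETA/NO libraries and 5.73, 3.92 and 6.47 in untreated libraries. Its groups overlapped. Whether reads were counted by strand is not given in the sources used here, so reads from the shared bases cannot be told apart.

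The other synthases were near the detection limit. NOS1, the neuronal synthase (chromosome 12, 117208142 to 117452170, minus strand), had 4.43 and 9.50 normalized reads in DETA/NO libraries and 9.56, 9.81 and 11.1 in untreated libraries. These were 4 and 10 reads, against 10, 10 and 12, and the pooled ratio of 0.704 had a 95% exact interval of 0.347 to 1.36. A difference in NOS1 was not detectable at this depth. NOS2, the inducible synthase (chromosome 17, 27756766 to 27800499, minus strand), had 1 read in the shared DETA/NO library and 0 in the other 4. A count of 0 allows a level of up to 2.85 normalized reads in DETA/NO replicate 3 and up to 2.77 to 2.94 in the untreated libraries (3 counts).

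Because NOS3 is an endothelial gene, 10 endothelial markers were read beside it. None was at 0 in every library, and their summed level was 636 to 696 normalized reads in DETA/NO libraries, against 440 to 481 in untreated libraries. Of the 6 tested, 3 were higher (21.7% of all genes tested were) and 0 lower, with a median log2 fold change of 0.47 against −0.00016 over all genes tested. TEK reached the filter only through its DETA/NO libraries, so this count and median describe the list and support nothing. CDH5, the cadherin of endothelial junctions, had 144.0 and 202.3 normalized reads in DETA/NO and 72.6, 73.6 and 75.8 in untreated libraries (log2 fold change 1.20, adjusted p = 9.93e-08). KDR, a receptor of the growth factor VEGF, averaged 256 ± 17.0 and 175 ± 19.7 (SD; log2 fold change 0.55, adjusted p = 0.000178). TEK, the angiopoietin receptor, had 23.3 and 19.0 normalized reads in DETA/NO libraries, against 6.69, 3.92 and 6.47 in untreated libraries (log2 fold change 1.75), and it fell under the filter without DETA/NO replicate 1, which left 2 higher.

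Of the other defining markers, PECAM1, an endothelial adhesion protein, averaged 70.2 ± 12 in DETA/NO and 78.3 ± 8.41 in untreated libraries (adjusted p = 0.486). VWF, von Willebrand factor, averaged 29.4 ± 3.92 and 22.2 ± 4.2 (adjusted p = 0.256). ROBO4, an endothelial guidance receptor, lay under the filter, with 13.3 and 8.55 normalized reads in DETA/NO libraries, against 1.91, 2.94 and 3.70 in untreated libraries. With no filter it passed (log2 fold change 1.63, adjusted p = 0.0116), which gave 4 higher, but without DETA/NO replicate 1 it did not (adjusted p = 0.194). TIE1 and CLDN5, also under the filter, stayed at 0 to 2.94 normalized reads. The part of other cells in the NOS3 values was not tested.

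**Figure D2:**
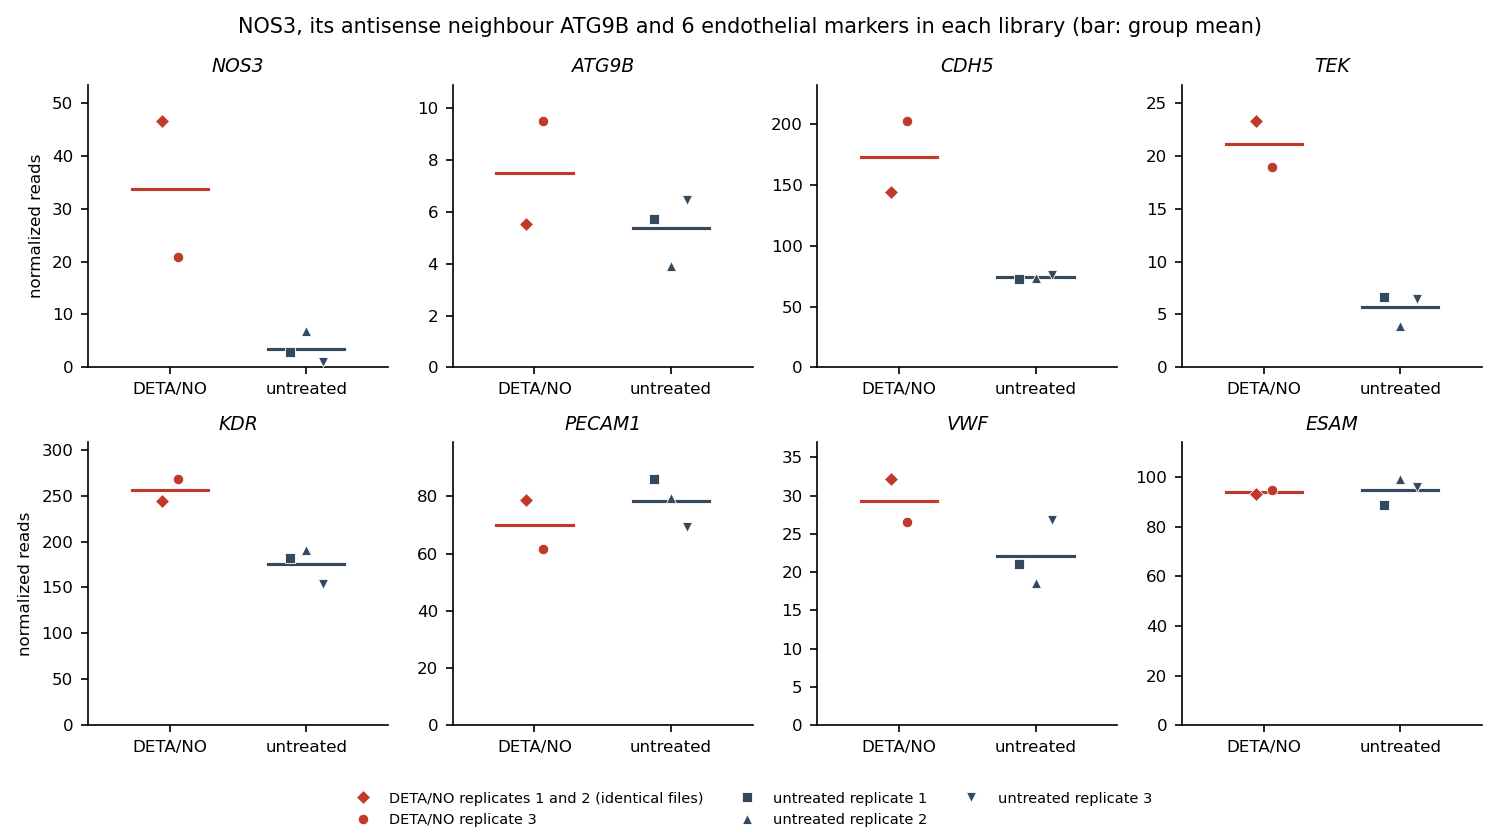
Normalized reads (vertical axes from 0) of NOS3, its antisense neighbour ATG9B and the 6 tested endothelial markers in the 2 DETA/NO libraries (red) and 3 untreated libraries (dark blue), with bars at the group means. NOS3, CDH5, TEK and KDR separate the groups, while ATG9B, PECAM1, VWF and ESAM overlap.

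Next came the genes that set the supply of inhibitor and substrate. DDAH1 and DDAH2 are related enzymes; DDAH1 breaks down asymmetric dimethylarginine, and DDAH2 carries the same family name, with its own activity debated. DDAH1 (chromosome 1, 85318481 to 85578363, minus strand) had 191.7 and 200.4 normalized reads in DETA/NO libraries, against 128.1, 123.6 and 136.8 in untreated libraries. Every DETA/NO value was above every untreated value, and the groups were about equally tight, at 196 ± 6.13 and 129 ± 6.70 (SD). The log2 fold change was 0.60 ± 0.120 (SE; 95% interval 0.35 to 0.84; adjusted p = 0.000136), a mean ratio of 1.51. A long non-coding RNA on the same strand, AC092807.3, shares 8.38% of the exon bases of DDAH1.

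DDAH2 (chromosome 6, 31727038 to 31730617, minus strand) had a mean of 1525 ± 17.6 normalized reads in DETA/NO and 1574 ± 87.2 in untreated libraries (SD). Its single values were 1512 and 1537 against 1474, 1630 and 1618. The groups overlapped. The log2 fold change was −0.04 (95% interval −0.14 to 0.05; adjusted p = 0.497). The intervals of DDAH1 and DDAH2 do not meet, but the difference between these changes was not tested.

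ARG2, the mitochondrial arginase, competes with the synthases for arginine (chromosome 14, 67619798 to 67651720, plus strand). It had 375.6 and 396.0 normalized reads in DETA/NO libraries and 345.0, 368.9 and 355.8 in untreated libraries. The groups did not overlap, but by a margin smaller than the spread within either group, and ARG2 did not pass (log2 fold change 0.11, 95% interval −0.05 to 0.28, adjusted p = 0.281). VTI1B, on the opposite strand, shares 37.4% of the exon bases of ARG2, so part of these reads is uncertain.

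Among the reductases, AKR1A1 was lower and ADH5 did not pass the test. AKR1A1 is an aldehyde reductase that also reduces S-nitroso-coenzyme A and S-nitrosoglutathione (chromosome 1, 45550543 to 45570049, plus strand). It had 1167 and 1226 normalized reads in DETA/NO libraries, against 1545, 1524 and 1670 in untreated libraries. The gap between the groups was wider than the spread within either, 1196 ± 41.8 and 1580 ± 78.7 (SD). The log2 fold change was −0.40 ± 0.050 (SE; 95% interval −0.50 to −0.30; adjusted p = 7.04e-08), a mean ratio of 0.757.

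ADH5 is the S-nitrosoglutathione reductase, also known as a formaldehyde-oxidizing enzyme (chromosome 4, 99070978 to 99088801, minus strand). It had 3142 and 3003 normalized reads in DETA/NO libraries and 2982, 3074 and 2870 in untreated libraries. The groups overlapped. The log2 fold change was 0.05 (95% interval −0.03 to 0.13; adjusted p = 0.357).

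PDE5A, the cGMP-specific phosphodiesterase that sildenafil inhibits, had the smallest p of the 10 genes. It lies on chromosome 4 at 119494395 to 119628991, minus strand, and had 5343 and 5554 normalized reads in DETA/NO libraries, against 3886, 3626 and 3642 in untreated libraries. The lowest DETA/NO value was above the highest untreated value, and the group means were 5449 ± 149 and 3718 ± 146 (SD). The log2 fold change was 0.55 ± 0.036 (SE; 95% interval 0.48 to 0.63; adjusted p = 6.26e-14), a mean ratio of 1.47. A pseudogene on the opposite strand shares 5.54% of its exon bases.

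PRKG1 encodes protein kinase G 1, which cGMP activates (chromosome 10, 50990891 to 52298350, plus strand). It had 136.3 and 127.2 normalized reads in DETA/NO libraries and 130.9, 133.4 and 143.2 in untreated libraries. The values of both groups were mixed. The log2 fold change was −0.04 (95% interval −0.30 to 0.22; adjusted p = 0.817). The interval is wider than that of PDE5A.

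**Figure D3:**
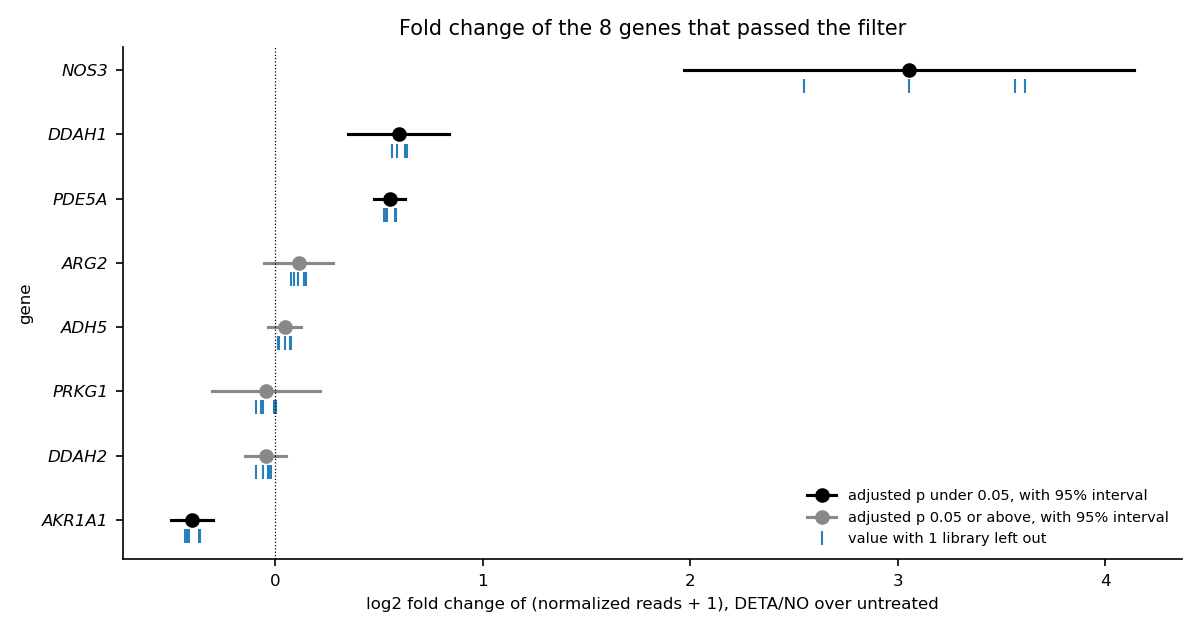
Log2 fold change of normalized reads plus 1, DETA/NO over untreated, for the 8 tested genes with 95% intervals (black: adjusted p under 0.05; grey: 0.05 or above); blue ticks give the value with 1 library left out. NOS3 sits at 3.05 with the widest interval, DDAH1 and PDE5A at 0.60 and 0.55 and AKR1A1 at −0.40, and the ticks of these 4 genes stay on 1 side of 0.

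Levels of different genes were compared per kilobase of annotated exon. In DETA/NO libraries the order of the means was ADH5 (631 ± 20.3 normalized reads per kilobase), DDAH2 (601 ± 6.93), PDE5A (557 ± 15.3), AKR1A1 (383 ± 13.4), ARG2 (160 ± 5.95), DDAH1 (42.9 ± 1.34), PRKG1 (10.3 ± 0.499), NOS3 (5.66 ± 3.05), NOS1 (0.531 ± 0.273) and NOS2. In untreated libraries the order was DDAH2 (620 ± 34.3), ADH5 (611 ± 21.1), AKR1A1 (506 ± 25.2), PDE5A (380 ± 14.9), ARG2 (147 ± 4.94), DDAH1 (28.3 ± 1.47), PRKG1 (10.6 ± 0.508), NOS1 (0.774 ± 0.0627), NOS3 (0.597 ± 0.509) and NOS2. ADH5 and DDAH2 were neighbours within their spread in untreated libraries, as were NOS1 and NOS3, while in DETA/NO libraries neither pair overlapped. PDE5A stood above AKR1A1 per kilobase in both DETA/NO libraries and below it in all untreated libraries, and the same held per kilobase of the longest transcript. By that length ADH5 stood above DDAH2, at 1153 and 921 over all libraries. Over all libraries, ADH5 and DDAH2 ranked at percentiles 90.2 and 90.1 of 23748 genes with an exon length and a value above 0, and NOS3 and NOS1 at 26.1 and 13.2. The 3 synthases were the lowest of the 10 genes in both groups.

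**Figure D4:**
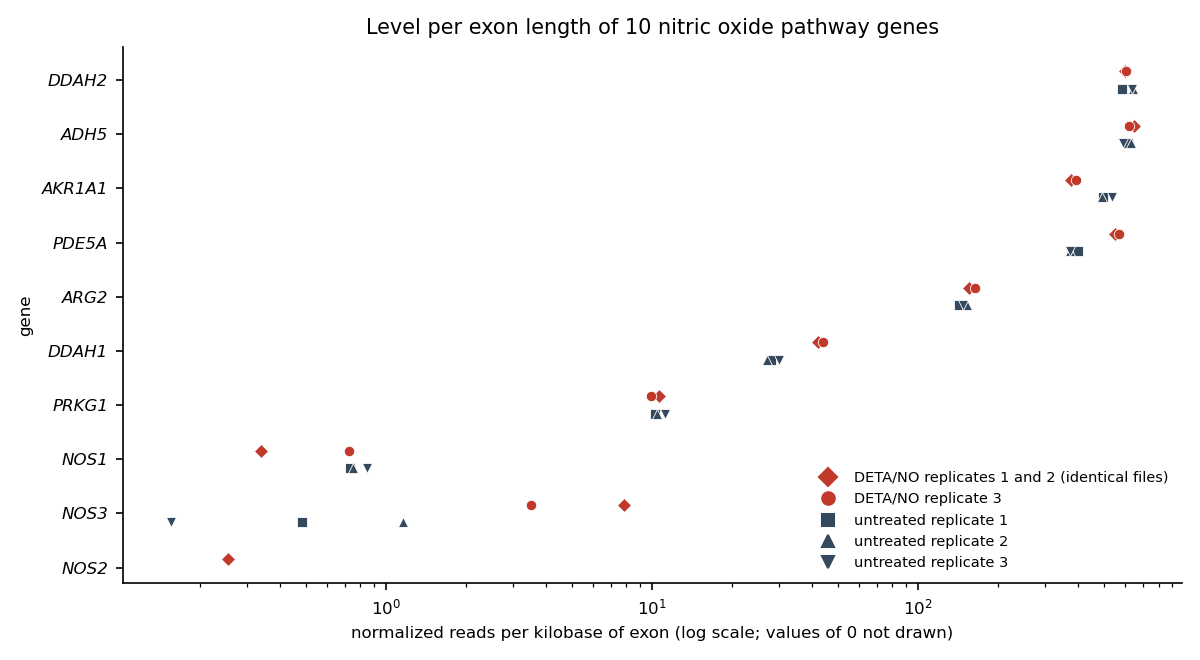
Normalized reads per kilobase of exon (log scale) of the 10 genes, DETA/NO libraries (red) above untreated libraries (dark blue) in each row; values of 0 are not drawn. PDE5A and AKR1A1 change places between the groups, and NOS3 averages 5.66 in DETA/NO and 0.597 in untreated libraries.

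The pathway around the 10 genes was read from 10 lists holding 98 other genes, of which 94 were matched, 72 were tested and 9 were listed at 0 in every library. Of the 72, 22 were higher and 16 lower (30.6% and 22.2%, against 21.7% and 21.7% of all genes tested), with a median log2 fold change of 0.03. The lists were chosen with earlier results of these data known, so these shares describe the lists. The same 21.7% in each direction applies to every list count below, and counts on such short lists describe the genes only. Upstream of PDE5A and PRKG1, the soluble guanylate cyclase list had 0 higher and 2 lower of 3 (median −0.16). GUCY1A1, its alpha-1 subunit, had 1240 and 1271 normalized reads in DETA/NO libraries, against 1475, 1541 and 1469 in untreated libraries (log2 fold change −0.25, adjusted p = 6.37e-05). GUCY1B1, the beta-1 subunit that holds the haem, had 1105 and 1093, against 1261, 1199 and 1229 (−0.16, adjusted p = 0.00966). Without DETA/NO replicate 3 the beta-1 subunit did not pass (adjusted p = 0.0558), which left 1 of 3 lower. The alpha-2 subunit GUCY1A2 averaged 211 ± 0.867 and 233 ± 25.2 (adjusted p = 0.326).

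Of 5 tested membrane guanylate cyclases and natriuretic peptide receptors, 0 were higher and 3 lower (median −0.40). Over all genes tested, 21.7% were higher and 21.7% lower. GUCY2C, the receptor for guanylin peptides, had 138.5 and 154.8 normalized reads in DETA/NO libraries, against 306.8, 309.0 and 326.2 in untreated libraries (log2 fold change −1.09, adjusted p = 1.45e-10). GUCY2D, a photoreceptor cyclase, averaged 12.5 ± 5.15 and 26.1 ± 4.73 (log2 fold change −1.04, adjusted p = 0.00866), and the clearance receptor NPR3 passed narrowly (adjusted p = 0.0463). Both lost the call without DETA/NO replicate 1 (adjusted p = 0.177 and 0.204), which left GUCY2C as the 1 gene lower. NPR3 also lost it without untreated replicate 1 or 3 or DETA/NO replicate 3 (0.0722 to 0.155).

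The other cGMP-hydrolysing phosphodiesterases moved in both directions, 2 higher and 3 lower of 10 (median −0.09). PDE1C, which hydrolyses both cAMP and cGMP, averaged 210.4 ± 33.0 in DETA/NO and 54.4 ± 16 in untreated libraries (log2 fold change 1.96, adjusted p = 1.59e-08). PDE11A rose as well (log2 fold change 0.98). PDE9A, which is selective for cGMP, had 328.0 and 398.8 normalized reads, against 496.0, 500.3 and 588.7 (−0.54), and PDE1A fell by 1.04 on the log2 scale. PDE6C, a cone photoreceptor enzyme, was the third lower gene (−0.44, adjusted p = 0.0290), and it did not pass without untreated replicate 1 or 2 or DETA/NO replicate 1 (0.0982 to 0.154). PDE3A, which cGMP inhibits, had 6567 and 5564 normalized reads in DETA/NO libraries and 3625, 4354 and 4570 in untreated libraries. Its groups were apart, but it did not pass (adjusted p = 0.0732). It passed in edgeR and DESeq2 (adjusted p = 5.89e-07 and 0.00249) and without untreated replicate 1 (0.00435), each with 3 of the list higher, and in limma without trend and robust options (0.0472). Downstream of PRKG1, 1 of 4 tested kinase partners and cGMP exporters was higher and 0 lower (median 0.09). That gene was VASP, an actin regulator and kinase substrate, at 3692 ± 14.4 and 3269 ± 114 (log2 fold change 0.18, adjusted p = 0.000226).

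Among 9 tested genes whose proteins bind the synthases, 5 were higher and 2 lower (median 0.14), against 21.7% of all genes tested in each direction. CAV1, the caveolae protein that binds and inhibits NOS3, had 7772 and 8058 normalized reads in DETA/NO libraries, against 3204, 3357 and 3017 in untreated libraries (log2 fold change 1.31 ± 0.038, SE; adjusted p = 5.24e-21). HSP90AB1, an HSP90 chaperone, averaged 71883 ± 433 and 54841 ± 1491 (0.39). NOSTRIN, which guides NOS3 traffic, averaged 15.9 ± 1.01 and 27.7 ± 1.78 (−0.76, adjusted p = 0.0288). HSP90AA1 (0.15), NOSIP (0.14) and DYNLL1 (0.10) were the other higher genes. Leaving out either DETA/NO library gave 3 higher and 1 lower, since NOSIP, DYNLL1 and NOSTRIN did not pass (adjusted p = 0.0614 to 0.189). NOSTRIN and NOSIP also lost the call without untreated replicate 1 or 2 (0.0616 to 0.0934). CAV1 and HSP90AB1 kept theirs with each library left out in turn.

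Cofactor and substrate genes were read next. Of 7 tested genes of tetrahydrobiopterin synthesis and recycling, 2 were higher and 0 lower (median 0.05). GCH1, the rate-limiting enzyme, averaged 833.4 ± 30.0 in DETA/NO and 720.2 ± 37.8 in untreated libraries (log2 fold change 0.21, adjusted p = 0.00636), and PTS, the next enzyme, had a log2 fold change of 0.19. Without DETA/NO replicate 3, GCH1 did not pass (adjusted p = 0.0812) and 1 gene was higher. Of 10 arginine transport and metabolism genes, 3 were higher and 2 lower (median −0.05). SLC7A1, the main cationic amino acid transporter, averaged 4639 ± 113 and 3934 ± 41.8 (0.24), and ODC1, which makes putrescine from ornithine, 3915 ± 29.1 and 2926 ± 132 (0.42). OAT, which converts ornithine, was lower (−0.19), as was the transporter SLC7A2 (−0.64, adjusted p = 0.0142). SLC7A2 did not pass without untreated replicate 3 (adjusted p = 0.0525), which left 1 lower, or without DETA/NO replicate 3 (adjusted p = 0.0602). The third higher gene, the transporter SLC7A7, passed narrowly (adjusted p = 0.0343), but not without any 1 untreated library or DETA/NO replicate 3 (0.0529 to 0.323). ASS1, which makes the precursor of arginine from citrulline, averaged 13147 ± 54.2 and 12802 ± 362 (adjusted p = 0.317).

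Of 9 tested protein arginine methyltransferases and AGXT2, the sources and another remover of dimethylarginines, 4 were higher and 1 lower (median 0.07). In each direction, 21.7% of all genes tested were called. PRMT1, which makes most asymmetric dimethylarginine, had 3749 and 3830 normalized reads in DETA/NO libraries, against 3068, 3143 and 3185 in untreated libraries (log2 fold change 0.27, adjusted p = 1.81e-07). PRMT5, which makes the symmetric form, averaged 364 ± 12.9 and 262 ± 3.05 (0.48), with 27.1% of its exon bases shared with another gene, and PRMT2 was lower (−0.17). PRMT1, on the supply side of asymmetric dimethylarginine, and DDAH1, on its removal side, were both higher. The other higher genes were PRMT9 (0.45) and CARM1 (0.12, adjusted p = 0.0288), and CARM1 did not pass without untreated replicate 1 or 2 or DETA/NO replicate 1 (0.0596 to 0.273).

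Other denitrosation genes split evenly. Of 7 tested thioredoxin, glutaredoxin and carbonyl reductase genes, 2 were higher and 2 lower (median −0.02). TXNRD1, which recycles cytosolic thioredoxin, averaged 10593 ± 15.5 in DETA/NO and 8176 ± 584 in untreated libraries (log2 fold change 0.38, adjusted p = 0.000227), and TXN, thioredoxin itself, 4623 ± 33.5 and 3984 ± 81.8 (0.21). GSR, which recycles glutathione, averaged 3618 ± 154 and 4504 ± 141 (−0.32, adjusted p = 1.88e-08), and TXNRD3 had a log2 fold change of −0.27. GLRX, CBR1 and CBR3 were listed at 0 in every library.

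Of 8 tested genes that consume nitric oxide or reduce nitrite, 3 were higher and 1 lower (median 0.06). XDH, xanthine dehydrogenase, whose oxidase form can reduce nitrite, had 2088 and 2284 normalized reads in DETA/NO libraries, against 869.7, 825.0 and 862.3 in untreated libraries (log2 fold change 1.36, adjusted p = 6.93e-20). AOX1, the related aldehyde oxidase, had 67.6 and 53.2, against 14.3, 21.6 and 9.24 (2.00, adjusted p = 2.19e-06). SUOX, sulfite oxidase, averaged 361 ± 9.13 and 494 ± 39.3 (−0.45). XDH, AOX1 and SUOX are molybdenum enzymes, and they did not move one way. MB, myoglobin, was the third higher gene (0.14, adjusted p = 0.0368), and it did not pass without untreated replicate 1 or 2 or DETA/NO replicate 3 (0.0584 to 0.504). The globin genes CYGB, NGB and HBB were listed at 0 in every library. With TMM or total scaling the count was 2 higher and 2 lower.

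**Figure D5:**
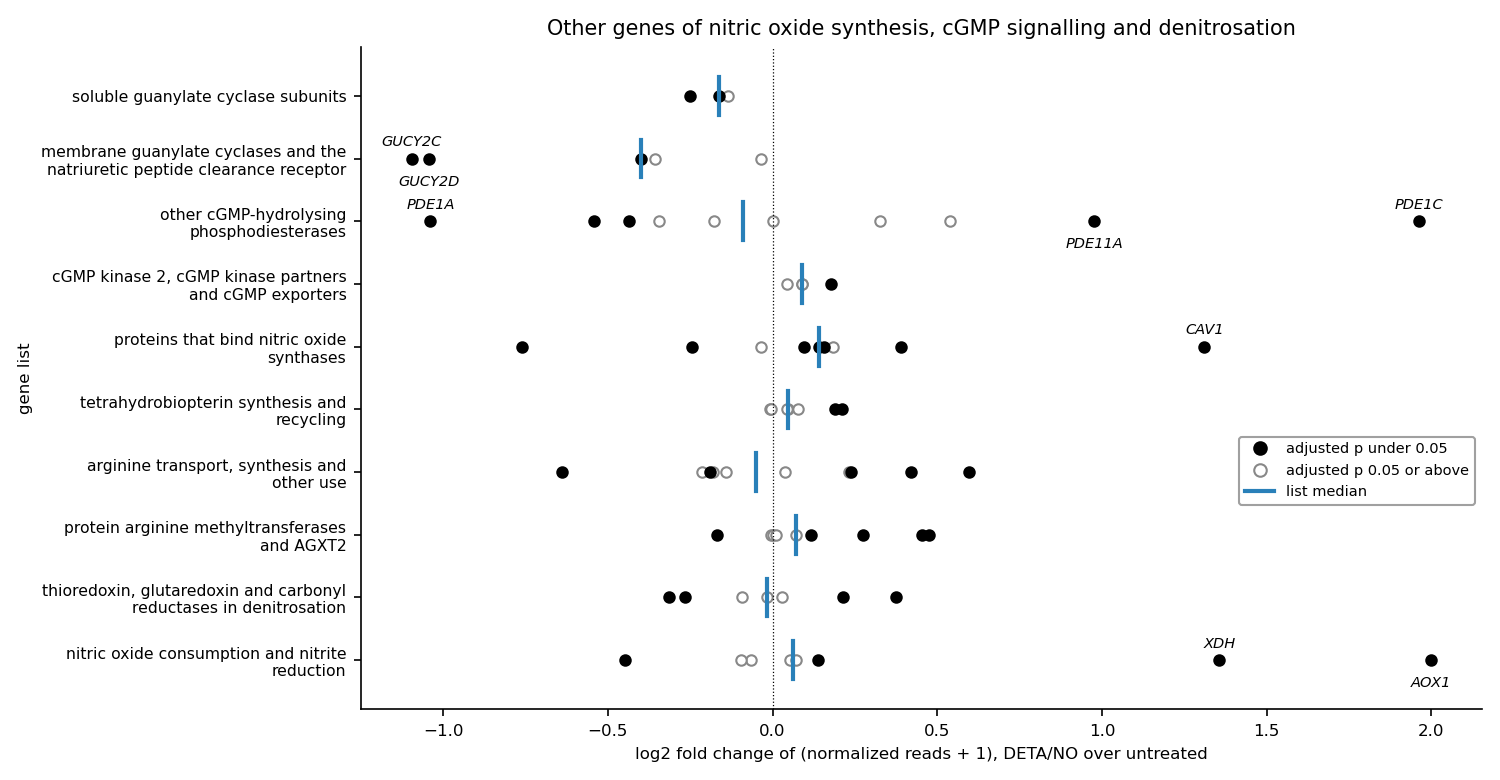
Log2 fold change of normalized reads plus 1, DETA/NO over untreated, for each tested gene of the 10 pathway lists (filled: adjusted p under 0.05; open: 0.05 or above), with list medians in blue. Most genes lie within 0.5 of 0, and PDE1C, AOX1, XDH and CAV1 lie farthest to the right and GUCY2C, GUCY2D and PDE1A farthest to the left.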

How the data were processed

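Total RNA libraries (KAPA RNA Hyper Prep, per the labels' protocols) were read from 6 deposited files, each holding 1 normalized read count (signal) per gene. The submitters' processing notes name GRCh38 and, with no role or order, featureCounts 2.0.3 (Subread), TopHat2 2.1.1, Bowtie2 2.5.0.0, R 4.2.2, DESeq2 1.38.3, deepTools 3.5.1, MultiQC 1.14 and FastQC 0.11.9. Neither annotation nor strand setting is given in the sources used here. In the deposited signal values, 100% above 0 were whole multiples (tolerance 0.01) of 1 value per library, and these whole reads were recovered. Row names of 27 genes had turned into dates and held up to 0.249% of reads.

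Groups came from the treatment labels of the samples. The test was limma 3.58.1 (trend, robust) in R 4.3.3 on log2(value + 1), for a mean of at least 10. This scale understates changes of low genes. Alternatives were DESeq2 1.42.0 and edgeR 4.0.16 on recovered reads, limma without trend and robust, TMM or total scaling, pseudocounts 0.1 and 10, no filter or a mean of at least 50, the replicate block, and each library left out. Intervals on reads are exact at 95% and floors are 3 counts, for counting error only.

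The 10 genes and all lists were chosen with earlier results of these data known. Named by rule were the 10 genes, EGFR, up to 2 higher and 2 lower genes with the smallest adjusted p from each pathway list, and the 2 highest genes of each marker list. ATG9B, TEK, PECAM1, VWF, ESAM, TIE1, CLDN5, ROBO4, RNA45S, GUCY1A2, NPR3, PDE3A, PDE6C, HSP90AA1, NOSIP, DYNLL1, SLC7A7, PRMT9, CARM1, MB and ASS1 were named after their values were seen. PDE6G, PDE6H, MTARC1 and MTARC2 were not analysed here. Exon lengths and positions are from GENCODE 29, and promoters from RefSeq (9 of the 10 genes matched). A listed gene enters the counts and is not reported here by itself. Protein identities were not compared.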

Additional observations from a re-analysis of the deposited data

How the results depend on the processing

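With 2 and 3 libraries and few reads, NOS3 is the least certain of the 4 called genes. NOS3, DDAH1, PDE5A and AKR1A1 kept direction and call in every alternative in which each was tested. For NOS3, which reached the filter only through its DETA/NO libraries, this describes the gene and supports nothing. NOS3 was not tested with a mean of at least 50 or without DETA/NO replicate 1, so 2 of the 10 genes were then called higher and 1 lower. With 1 library left out, log2 fold changes were 2.55 to 3.61 for NOS3 where it was tested (2.5 without DETA/NO replicate 1 and with no filter), 0.56 to 0.64 for DDAH1, 0.52 to 0.58 for PDE5A and −0.44 to −0.36 for AKR1A1. PRKG1, never called, ran from −0.093 to 0.0056. Over all genes, limma without trend and robust options called 2262 higher (2497 lower), against 3565 (3555), the cause was not tested, and NOS3 then had an adjusted p of 0.0399. With the replicate number as a replicate block, 3320 were higher and 3285 lower (shared library as number 1) or 3143 and 3178 (as number 2), and no call among the 10 genes changed. The deviations of same-numbered libraries from their group means had correlations of 0.00106 to 0.0301. With 2 DETA/NO libraries, whose deviations mirror each other, this cannot tell whether same-numbered libraries shared a culture or batch. In the pathway lists, called genes numbered 15 to 23 higher and 10 to 17 lower over all alternatives, and no called list gene changed sign. Among the genes named, DESeq2 did not call GUCY1B1, GUCY2D, NOSTRIN or SLC7A2 among others (adjusted p = 0.0518 to 0.174), and limma without trend and robust options did not call VASP, PDE11A, GCH1 or GUCY2D among others (0.0511 to 0.0682).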

Other observations

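Markers of cell types other than epithelium and endothelium moved in both directions. Over all genes tested, 21.7% were higher and 21.7% lower, and counts on these short lists describe the markers only. The summed level of 8 smooth muscle and pericyte markers was 328 to 330.4 normalized reads in DETA/NO libraries, against 367 to 408.1 in untreated libraries, and 1 of 4 tested was lower, MYH11, a smooth muscle myosin, at 69.3 ± 5.38 and 114 ± 17.4 (log2 fold change −0.70, limma adjusted p = 0.000504). TAGLN, an actin-binding protein of smooth muscle and the highest of that list, averaged 189 ± 12.7 and 199 ± 9.84 (adjusted p = 0.590). Of 6 fibroblast markers 1, COL1A1, a collagen chain, passed the filter. It was higher, at 839 ± 4.59 in DETA/NO and 599 ± 31.4 in untreated libraries (log2 fold change 0.49). PDGFRA, a growth factor receptor of fibroblasts, lay under the filter, with 1.11 and 4.75 normalized reads in DETA/NO libraries, against 13.4, 9.81 and 7.39 in untreated libraries. With no filter it was lower (log2 fold change −1.65, adjusted p = 0.00595), but without DETA/NO replicate 1 it did not pass (adjusted p = 0.261). Of 5 tested leukocyte and macrophage markers 2 were higher and 1 lower. CSF1R, the receptor of macrophage growth factor, averaged 2569 ± 2.14 and 2274 ± 30.5 (0.18), and CD14, a lipopolysaccharide co-receptor, averaged 423 ± 46.5 and 939 ± 27.7 (−1.15, adjusted p = 4.26e-15). CD68 was listed at 0 in every library, and 85.8% of its exon bases are shared with other genes.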
